A study of Mus musculus with 2 samples.

Results

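The genes described here are the glutathione transferases and the antioxidant enzymes of the mouse uterus, with the factor NRF2 and its partner KEAP1. They were chosen by gene symbol, and 49 of the 14678 genes in the deposited table met the rule. The rule itself used no measured value, but it was set with earlier results of these data known. Of these, 34 had at least 200 copies in both libraries together, and the other 15 were too low for a call. The study asked which uterine genes respond to repression of vascular endothelial growth factor (VEGF) before implantation. Digital gene expression profiling sequences short tags of transcripts, and the tags matched to a gene in a library are its copies.

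Both groups were adult littermate females of the strain VEGFtetO/tetO/beta-AKtg/wt mated with VEGFtetO/tetO males and collected at gestation day 2.5. All of them carry tet operator sites in both copies of the VEGF promoter and a tetR-Krab repressor fusion driven by the beta-actin promoter, so that repression acts in every tissue and not in the uterus alone. The Dox+ females ate chow with doxycycline, which releases the repressor, and are the VEGF-normal group. The Dox- females ate chow without doxycycline from a young age and are the VEGF-repression group. RNA of 3 uteri was pooled per condition and 1 library was sequenced from each pool. A difference between the libraries therefore has no replicate check, and effects of doxycycline itself cannot be told apart from those of VEGF. No p-value is given, and the interval in brackets after a fold change or ratio is an exact 95% interval that covers counting error only.

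Glutathione transferases join the tripeptide glutathione to electrophilic compounds, and the cytosolic enzymes fall into classes named by Greek letters. Glutathione peroxidases and peroxiredoxins reduce peroxides, with electrons from glutathione and from thioredoxin respectively, while superoxide dismutases and catalase dispose of superoxide and hydrogen peroxide. NRF2, held in the cytoplasm by KEAP1, binds antioxidant response elements (AREs) and activates many of the genes that detoxify electrophiles and oxidants.

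Clean tags numbered 5985925 for Dox+ and 5844314 for Dox-, of which 74.1% and 72.2% were counted for a gene in the table. Vegfa, the repressed gene, had 247 copies in Dox+ and 125 in Dox-, 1.93-fold lower (1.55 to 2.41), which is the direction of the labels. Uterine markers were present in both libraries, among them the stromal factors Hoxa10 with 3120 and 1060 copies and Hand2 with 985 and 143. Summed markers of the cell types of the organ differed between the libraries. Smooth muscle went from 6531 to 4501 TPM (copies per 1000000 clean tags) with 4 of 8 markers lower. Epithelium went from 1426 to 2391 TPM with 6 of 12 higher and 2 lower, and stroma from 9121 to 10298 TPM with 2 of 10 higher and 4 lower. The stromal sum rests much on Col1a1, with 3845 and 5766 TPM, while the median log2 ratio of the stromal markers was -0.25. The epithelial sum rose most through Ltf (151 and 452 TPM), Cldn7 (147 and 387 TPM) and Lcn2 (4.51 and 160 TPM). The epithelial markers Krt8, Krt18, Krt19 and Cdh1 were not called, with ratios of 1.14 to 1.35 toward Dox-. Leukocyte markers summed to 84.9 and 124 TPM, neutrophil markers to 7.02 and 37.0 TPM and endothelial markers to 217 and 150 TPM. Only 2 of 10 leukocyte markers, neither called, and 0 of 3 neutrophil markers had 200 copies in both libraries together. In RNA of a whole organ, fewer cells of a type and less RNA per cell cannot be told apart.

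A gene was called higher or lower in the Dox- library at a fold change of at least 1.5 and at least 200 copies in both libraries together. Of the 34 genes with enough copies, 5 were higher and 8 lower. Over all genes with as many copies, 15.2% were higher and 14.7% lower, 29.9% in either direction, so the share of higher members (14.7%) was near that of all genes and the share of lower members (23.5%) was above it. The higher genes were Gsr, Sod3, Prdx1, Gstt2 and Cat. The lower genes were Gstm1, Gstm7, Gstm2, Gstm5, Gsto1, Gstk1, Gclm and Sod2. With scaling by trimmed means (TMM) or by median ratios, Cat and Gstt2 were no longer called and Gpx3 was, which gave 3 higher and 9 lower. At a threshold of 2-fold, 2 of the 34 were higher (Gsr and Sod3) and 5 lower (Gstm1, Gstm7, Gstm2, Gsto1 and Gstk1), against 4.61% and 5.62% of all genes, and 10.2% in either direction. The median log2 ratio of the 34 genes, Dox- over Dox+, was -0.24, against 0.03 for all genes. Of the 8 lower genes, 6 were transferases. Outside the transferases 4 of 22 genes were higher (18.2%) and 2 lower (9.09%), with a median of 0.11. Without the mu class (the Gstm genes) 5 of 30 genes were higher (16.7%) and 4 lower (13.3%), both near the shares of all genes. The median was then -0.10.

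**Figure D1:**
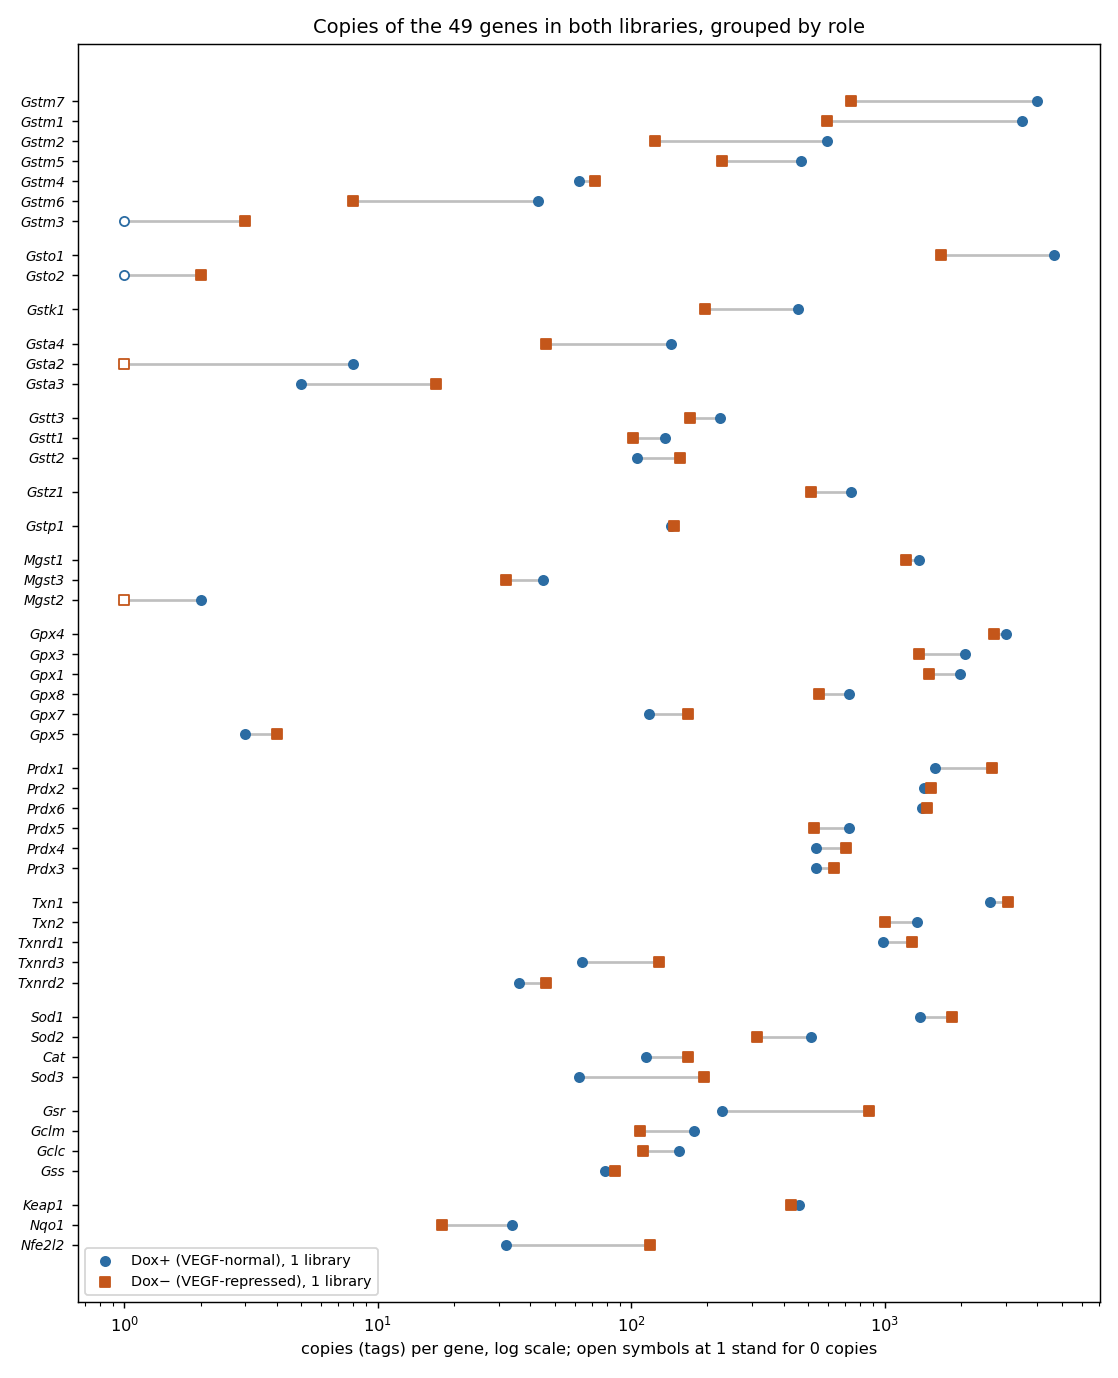
Copies of each of the 49 genes in the Dox+ library (circles) and the Dox- library (squares), on a log axis, grouped by role, with open symbols at 1 for genes with 0 copies. Gstm7, Gstm1, Gstm2 and Gsto1 lie far to the left in Dox-, while Gsr and Sod3 lie to the right.

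The mu class transferases carried the largest decrease. Their 7 genes lie next to one another on chromosome 3 within 149 kb (NCBIM37, positions 107698739 to 107847812), all on the minus strand but Gstm5. In Dox+ the class held 8637 copies and in Dox- 1763, which is 1443 and 302 TPM and 4.78-fold lower (4.54 to 5.04). Its share of the copies of all 49 genes was 22.1% in Dox+ and 5.95% in Dox-.

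Gstm7 had 3995 copies (667 TPM) in Dox+ and 734 (126 TPM) in Dox-. It fell 5.31-fold (4.91 to 5.76), a log2 ratio of -2.41. Gstm1, the mu enzyme best known from liver, had 3476 copies (581 TPM) and 593 copies (101 TPM), and fell 5.72-fold (5.24 to 6.25), a log2 ratio of -2.52. The pair fell by similar folds, with intervals that overlap. Gstm2 went from 594 copies (99.2 TPM) to 124 copies (21.2 TPM), 4.68-fold lower (3.85 to 5.72). Gstm5 went from 467 copies (78.0 TPM) to 229 copies (39.2 TPM), 1.99-fold lower (1.70 to 2.34). Its interval lies below those of Gstm7, Gstm1 and Gstm2, so within the class Gstm5 differed from its neighbours beyond counting error.

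The other 3 mu genes were below the filter of 200 copies. Gstm6 had 43 copies in Dox+ and 8 in Dox-, a ratio of 5.25 (2.44 to 12.9) in the same direction. Gstm4, at the far end of the cluster beyond Gstm1, had 62 and 72 copies, a ratio of 1.19 (0.835 to 1.70) in the opposite direction whose interval holds 1. Gstm3 had 0 and 3 copies, too few for a fold change. The low level of these 3 genes was seen in both libraries, and the class total rests on Gstm7 and Gstm1.

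**Figure D2:**
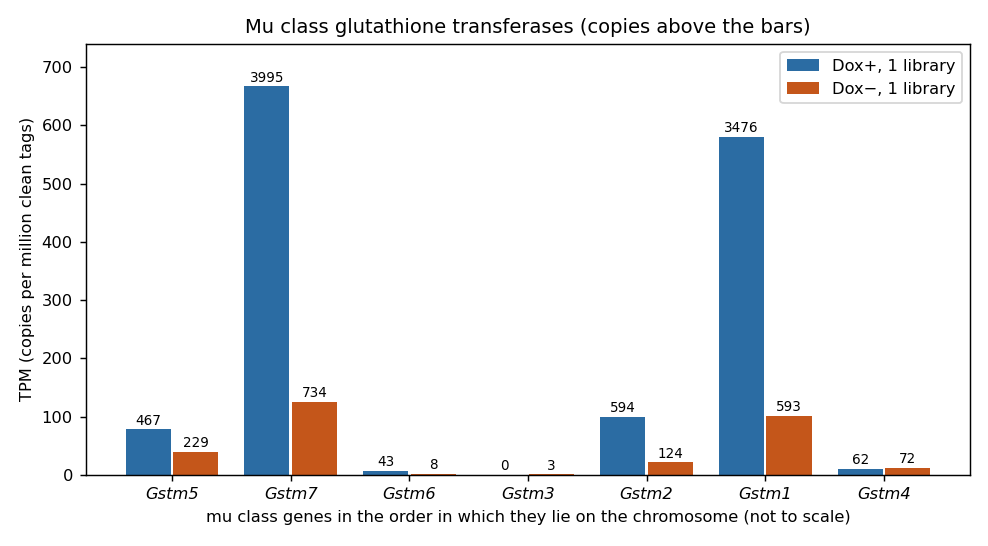
Level of the 7 mu class genes in TPM (copies per 1000000 clean tags) in the Dox+ and Dox- libraries, in their order on chromosome 3, with copies above the bars. Gstm7 and Gstm1 stand far above the rest in Dox+ and fell to 734 and 593 copies in Dox-, while Gstm4 was low in both.

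Mu class transcripts resemble one another, which limits what a tag can tell. Of the 21-base windows of Gstm1 transcripts 33.2% also occur in transcripts of another gene, most often Gstm3, and the share was 25.9% for Gstm2, 14.3% for Gstm6 and 31.5% for Gstm3. It was 6.78% for Gstm7, 6.52% for Gstm4 and 0.470% for Gstm5. The gene models of Gstm6 and Gstm3 also overlap on the chromosome. Tags that matched several genes were left out by the authors. Where in a transcript the counted tags lie is not given, so these shares do not measure how many tags were left out. They show only that shared tags are possible, more so for Gstm1, Gstm2, Gstm3 and Gstm6 than for Gstm7 and Gstm5. Between the encoded proteins identity was 84.4% for Gstm1 and Gstm3 and 79.8% for Gstm1 and Gstm2, and Gstm5 was 59.8% to 67.9% identical to the others.

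Smooth muscle and stromal markers were also lower in the Dox- library in part. The smooth muscle markers had log2 ratios of -0.33 to -0.92. Among the stromal markers Hand2 had a log2 ratio of -2.75, Hoxa11 of -1.68 and Hoxa10 of -1.52, while Lum and Pgr had 0.88 and 0.90. Of the 12 epithelial markers with enough copies, Cldn3 and Cldn4 were lower, with -1.55 and -1.16, and 6 were higher, Epcam with 0.85, Cldn7 with 1.40, Ltf with 1.58, Krt7 with 1.78, Prom1 with 2.49 and Lcn2 with 5.15. The mesothelial markers summed to 69.0 and 31.1 TPM, most of it from Wt1 with 54.3 and 26.9 TPM. The part of any of these cell types in the decrease of the mu class was not tested.

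The promoters of Gstm1 and Gstm4 are shown because these adjacent genes lie on the same strand and the interval of Gstm1 lies far from that of Gstm4. Each is a RefSeq promoter, and each gene has a further promoter that is not shown. Those shown run from 250 bases before to 50 bases after the start. They were located on NCBIM37 by exact match and are written 5′ to 3′ on the strand of the gene. Neither holds a match to the ARE searched for in the next paragraph, so no letter is in capitals.
Gstm1, chr3:107820842-107821141, minus strand: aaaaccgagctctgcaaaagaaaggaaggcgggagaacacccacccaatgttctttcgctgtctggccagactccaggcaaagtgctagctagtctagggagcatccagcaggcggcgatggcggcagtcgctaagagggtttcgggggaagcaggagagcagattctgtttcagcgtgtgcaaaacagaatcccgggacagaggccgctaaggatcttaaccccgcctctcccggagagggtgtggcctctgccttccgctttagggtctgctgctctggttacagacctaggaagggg
Gstm4, chr3:107847728-107848027, minus strand: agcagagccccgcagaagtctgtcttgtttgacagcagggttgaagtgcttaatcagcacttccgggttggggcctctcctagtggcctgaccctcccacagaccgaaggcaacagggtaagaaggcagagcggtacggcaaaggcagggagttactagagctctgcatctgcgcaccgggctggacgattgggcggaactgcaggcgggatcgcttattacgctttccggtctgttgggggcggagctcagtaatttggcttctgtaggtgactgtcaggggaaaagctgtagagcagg
The pair was 49.7% identical over an alignment of these 300 bases. With a promoter chosen for each of the 7 mu genes, the pairs lay between 44.8% and 51.0%. The further promoters of Gstm1, Gstm4, Gstm6 and Gstm7 were not aligned. No unrelated promoters were aligned for comparison, so these values do not tell how alike the promoters are.

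AREs were searched as TGACNNNGC on both strands, the core letters of the site to which NRF2 binds. At least 1 match was found for 9 of the 43 members with a RefSeq promoter (20.9%, against 14.0% of all gene symbols), that is in 9 of their 57 promoters (15.8%), against 12.4% of all 32851 promoters. Prdx6, Gsr, Sod3, Gclc, Gsta4 and Gstt2 had no entry. The windows below are shown because they include genes that moved in opposite directions, and capitals mark the matched letters. In the first 4 the match reads on the strand of the gene, in the other 5 on the opposite strand.
Gstm7, chr3:107734647-107734667, minus strand: aagaccTGACAAAGCgaagcc
Gstm5, chr3:107698724-107698744, plus strand: gcccacTGACCACGCggaggg
Nfe2l2, chr2:75542946-75542966, minus strand: cccaccTGACTCCGCcatgcc
Gsta3, chr1:21230539-21230559, plus strand: caggcaTGACATTGCattttt
Gclm, chr3:121948335-121948355, plus strand: ccgggcGCACCGTCAactctc
Prdx1, chr4:116358065-116358085, plus strand: gaaagcGCTGAGTCAtccccc
Sod1, chr16:90220945-90220965, plus strand: aggtggGCGTGGTCAgactca
Txnrd1, chr10:82321853-82321873, plus strand: atttttGCTTTGTCAttctga
Mgst1, chr6:138088986-138089006, plus strand: ggcttgGCACGGTCAggaggc
The matched letters of Gstm5, Nfe2l2, Gsta3, Gclm, Prdx1 and Sod1 lie before the annotated gene, those of Gstm7 and Mgst1 lie within an exon before a further RefSeq start, and that of Txnrd1 lies in an intron before an internal start. Of these genes Gstm7, Gstm5 and Gclm were lower in Dox-, and Prdx1 was higher. A match is a description of the letters and no evidence of binding. The palindromic estrogen response element, searched in its consensus form, was in 0 of the 57 promoters and in 23 of all 32851.

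Among the other transferases the omega class had the most copies. Gsto1, which reduces dehydroascorbate and methylated arsenic, had 4659 copies (778 TPM) in Dox+ and 1665 (285 TPM) in Dox-. It fell 2.73-fold (2.58 to 2.89), a log2 ratio of -1.45. No other member had as many copies in Dox+. Its neighbour Gsto2 on chromosome 19 had 0 and 2 copies. Gstk1, the kappa class enzyme of mitochondria and peroxisomes, went from 455 copies (76.0 TPM) to 196 (33.5 TPM), 2.27-fold lower (1.91 to 2.69).

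The alpha class was scarce, with no gene past the filter. Gsta4, which conjugates the lipid peroxidation product 4-hydroxynonenal, had 144 copies (24.1 TPM) in Dox+ and 46 (7.87 TPM) in Dox-, a ratio of 3.06 toward Dox+ (2.18 to 4.36). Gsta3 had 5 and 17 copies, a ratio of 3.48 toward Dox- (1.23 to 12.1). Gsta2 had 8 and 0 copies, a ratio of 2.60 toward Dox+ with the 0 set to a floor of 3 copies. Its interval, from the counts themselves, starts at 1.67 and has no upper limit. Of its windows 82.6% are shared with another gene, so some of its tags may have been left out.

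Of the theta, zeta and pi classes, with 3, 1 and 1 genes with enough copies, 1 gene was called, against 29.9% of all genes in either direction. Gstt2 rose from 105 copies (17.5 TPM) to 156 (26.7 TPM), 1.52-fold (1.18 to 1.97), just past the threshold. Its neighbours on chromosome 10 were not called, Gstt3 with 225 copies (37.6 TPM) and 170 (29.1 TPM), a ratio of 1.29 toward Dox+ (1.05 to 1.59), and Gstt1 with 136 and 102 copies. Of the Gstt3 windows 27.4% are shared with another gene. Gstz1, which also isomerises maleylacetoacetate in tyrosine breakdown, had 739 copies (123 TPM) and 512 (87.6 TPM), a ratio of 1.41 toward Dox+ (1.26 to 1.58). Gstp1, the pi class enzyme, had 144 copies (24.1 TPM) and 148 (25.3 TPM), a ratio of 1.05 (0.831 to 1.33) whose interval holds 1, and 76.4% of its windows are shared, chiefly with Gstp2.

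The cytosolic and kappa transferases together held 15257 copies in Dox+ and 4777 in Dox-, a sum 3.12-fold lower (3.02 to 3.22). Of their 11 genes with enough copies, 6 were lower (54.5%) and 1 higher (9.09%), against 14.7% and 15.2% of all genes. As a share of the copies of all 49 genes they went from 39.0% to 16.1%. Without the mu class the 11 remaining genes of the group still summed to 6620 and 3014 copies, 2.14-fold lower (2.05 to 2.24), of which Gsto1 makes up most. The membrane-bound microsomal transferases, a family of separate descent, were not called. Mgst1 had 1363 copies (228 TPM) and 1220 (209 TPM), a ratio of 1.09 toward Dox+ (1.01 to 1.18), Mgst3 had 45 and 32 copies and Mgst2 had 2 and 0.

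**Figure D3:**
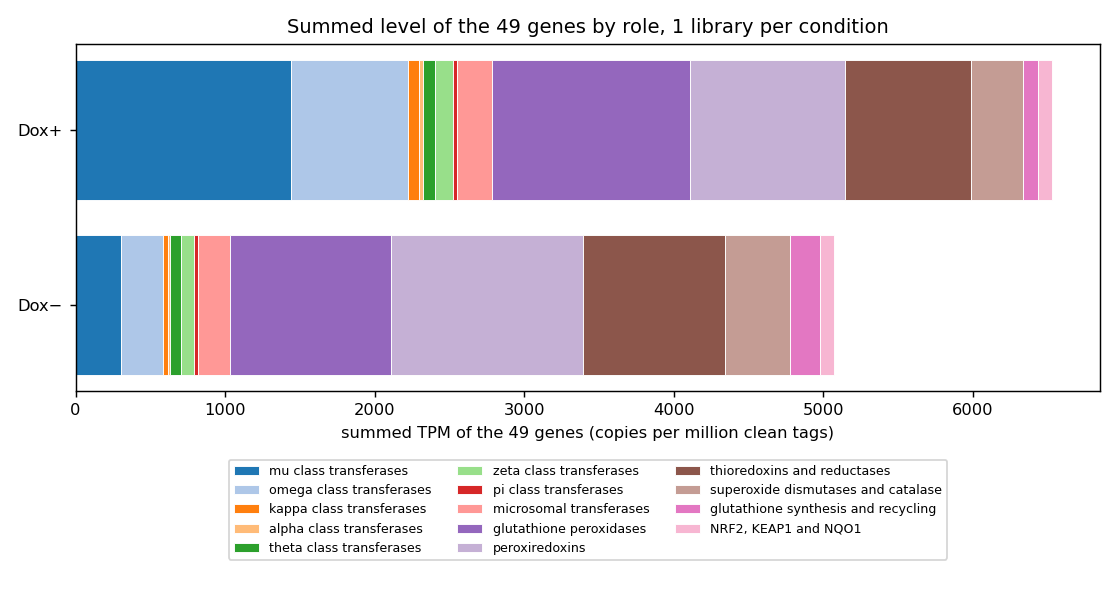
Summed level of the 49 genes in TPM in each library, stacked by role. The bars end at 6528 TPM for Dox+ and 5073 TPM for Dox-, and the mu and omega segments at the left are shorter in Dox-, while the peroxiredoxin segment is longer in Dox-.

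Among the genes that make and recycle glutathione, 1 rose, 1 fell and 1 was not called, against 15.2% of all genes higher and 14.7% lower. Gsr, glutathione reductase, which returns oxidised glutathione to its reduced form, had 229 copies (38.3 TPM) in Dox+ and 870 (149 TPM) in Dox-. It rose 3.89-fold (3.36 to 4.52), a log2 ratio of 1.96, the largest increase among the 34 genes. No enzyme of glutathione synthesis was higher by the call. Gclm, the modifier subunit of glutamate-cysteine ligase, fell from 177 copies (29.6 TPM) to 108 (18.5 TPM), 1.60-fold (1.25 to 2.05). The catalytic subunit Gclc had 154 and 111 copies, a ratio of 1.35 toward Dox+ (1.05 to 1.74), and glutathione synthetase Gss had 79 and 86. The epithelial markers summed to 1426 and 2391 TPM in the same libraries, 1.68-fold higher in Dox-. Among them Krt8, Krt18, Krt19 and Cdh1 were not called, with ratios of 1.14 to 1.35 toward Dox-. The part of the epithelium in the rise of Gsr, or of Sod3 and Prdx1, was not tested.

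The 3 superoxide dismutases, which work in different compartments, had different ratios. Extracellular Sod3 had 62 copies (10.4 TPM) in Dox+ and 193 (33.0 TPM) in Dox-. It rose 3.19-fold (2.38 to 4.32). Mitochondrial Sod2 had 511 copies (85.4 TPM) and 315 (53.9 TPM), and fell 1.58-fold (1.37 to 1.83). Cytosolic Sod1 had 1378 copies (230 TPM) and 1848 (316 TPM), a ratio of 1.37 toward Dox- (1.28 to 1.47) that did not reach the call. The intervals of the 3 genes do not overlap, so their ratios differed from one another beyond counting error. Catalase, Cat, which breaks down hydrogen peroxide in peroxisomes, rose from 114 copies (19.0 TPM) to 168 (28.7 TPM), 1.51-fold (1.18 to 1.93). The call for Cat was near the threshold of 1.5 and was lost with TMM and median-ratio scaling.

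No glutathione peroxidase was called, out of 5 with enough copies, against 29.9% of all genes in either direction. With 5 genes this is not read as a trait of the family. Gpx4, which reduces lipid hydroperoxides in membranes, had 3022 copies (505 TPM) in Dox+ and 2691 (460 TPM) in Dox-, a ratio of 1.10 toward Dox+ (1.04 to 1.16). Gpx3, the secreted enzyme, had 2078 and 1370 copies, a ratio of 1.48 toward Dox+ (1.38 to 1.59), which lies just under the threshold. Cytosolic Gpx1 had 1985 and 1502 copies and Gpx8 of the endoplasmic reticulum 721 and 552, with ratios of 1.29 and 1.28 in the same direction. Gpx7 of the same compartment had 118 and 168 copies, a ratio of 1.46 toward Dox- (1.15 to 1.86), and Gpx5 had 3 and 4. The summed level was 1324 TPM in Dox+ and 1076 TPM in Dox-.

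Of the 6 peroxiredoxins, 1 was called (16.7%, against 29.9% of all genes in either direction). Prdx1 had 1588 copies (265 TPM) in Dox+ and 2661 (455 TPM) in Dox-. It rose 1.72-fold (1.61 to 1.83). Of its windows 23.0% are shared with a gene model named Gm7204. Prdx2 had 1432 and 1527 copies and Prdx6 1408 and 1476, ratios of 1.09 and 1.07. Prdx4 of the endoplasmic reticulum had 537 and 707 copies and mitochondrial Prdx3 536 and 630, ratios of 1.35 and 1.20 toward Dox-. Prdx5 alone in the family had a ratio toward Dox+, with 725 and 527 copies, 1.34 (1.20 to 1.51).

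The thioredoxin system was not called in either direction among 3 genes with enough copies, against 29.9% of all genes. Cytosolic Txn1 had 2595 copies (434 TPM) and 3076 (526 TPM), a ratio of 1.21 toward Dox- (1.15 to 1.28). Its reductase Txnrd1 had 988 and 1280 copies, a ratio of 1.33 toward Dox- (1.22 to 1.44). The mitochondrial thioredoxin Txn2 had 1340 and 1007 copies, a ratio of 1.30 toward Dox+ (1.20 to 1.41). The intervals of Txn1 and Txn2 lie on opposite sides of 1. Txnrd3 had 64 and 129 copies and Txnrd2 36 and 46, both under the filter.

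Of NRF2, KEAP1 and NQO1 only Keap1 had enough copies for a call. Keap1 had 461 copies (77.0 TPM) in Dox+ and 428 (73.2 TPM) in Dox-, a ratio of 1.05 toward Dox+ (0.920 to 1.20) whose interval holds 1. Nfe2l2, which encodes NRF2, had 32 and 119 copies, a ratio of 3.81 toward Dox- (2.56 to 5.82), and with 151 copies together it was under the filter. Nqo1, a quinone reductase widely used as a readout of NRF2, had 34 and 18 copies, a ratio of 1.84 toward Dox+ (1.01 to 3.47). The message of the factor and that of its classical target thus lay on opposite sides of 1, both at low counts.

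**Figure D4:**
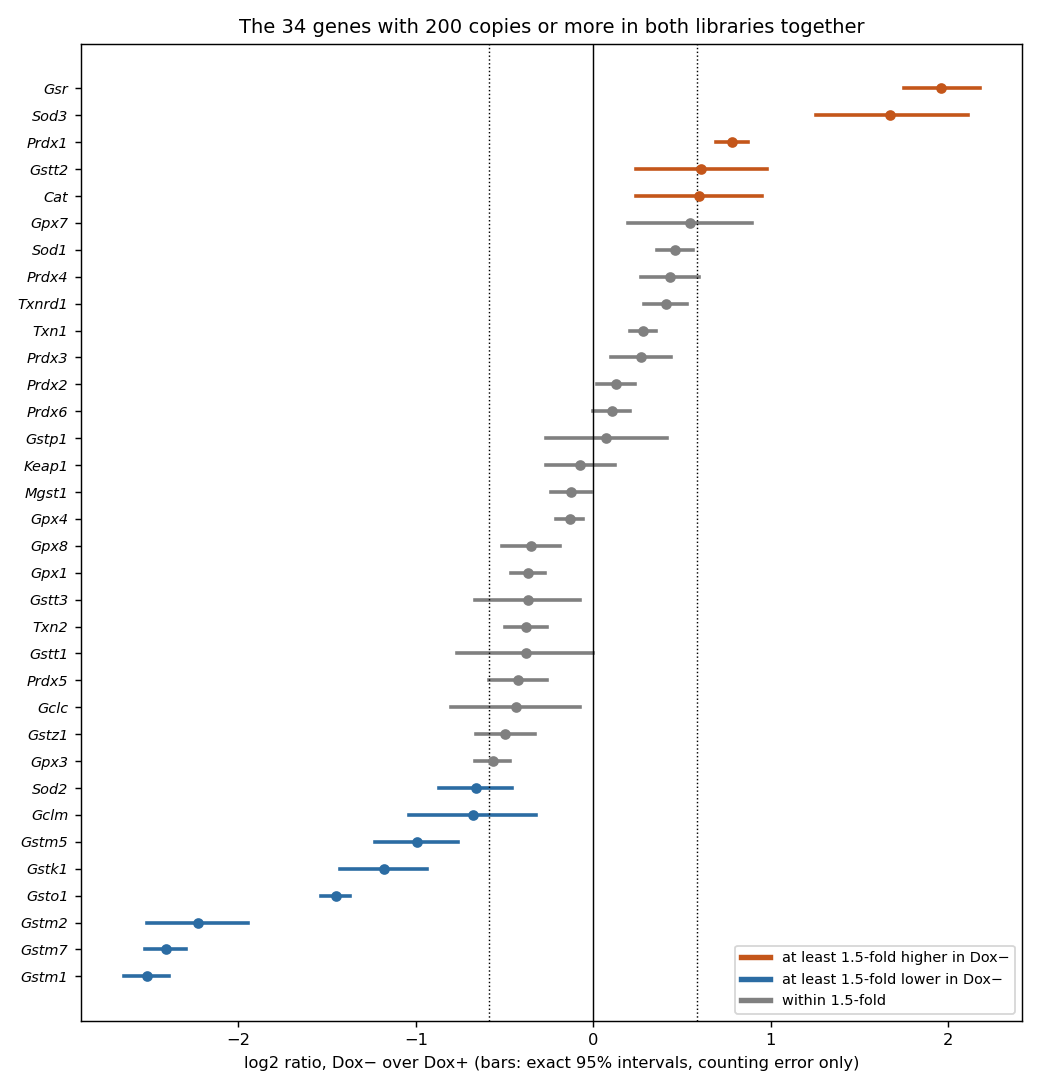
Log2 ratio, Dox- over Dox+, of the 34 genes with at least 200 copies together, with exact 95% intervals of counting error and dotted lines at 1.5-fold. Gsr at 1.96 and Gstm1 at -2.52 mark the ends, and 21 genes lie between the lines.

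Of the 21 genes within 1.5-fold, 17 had an interval that excludes 1, so most of these small ratios exceed counting error, and the spread between uteri is not known. The intervals of all 13 called genes exclude 1. Grouped by where the proteins work, 6 members were taken as mitochondrial, Gstk1, Sod2, Prdx3, Prdx5, Txn2 and Txnrd2, and 5 of them had enough copies. Of these 2 were lower (40%) and 0 higher, against 14.7% and 15.2% of all genes, with a median log2 ratio of -0.43. The grouping is not a full list of members with mitochondrial forms, and Gsr, which was higher, was not in it. The 6 selenoenzymes Gpx1, Gpx3, Gpx4, Txnrd1, Txnrd2 and Txnrd3 had 4 with enough copies. None of them was called at the fold of 1.5, against 29.9% of all genes, and their median was -0.25. Both groupings were made after the values were seen.

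The order of levels changed between the libraries. Levels of different genes were compared in TPM per kb of transcript. In Dox+ the highest were Gsto1 with 658, Gpx4 with 507, Gstm7 with 485 and Gstm1 with 451, followed by Txn1 with 412. In Dox- they were Txn1 with 501, Sod1 with 489 and Gpx4 with 463, followed by Gpx1 with 303 and Gsto1 with 241. Gstm7 stood at 91.2 and Gstm1 at 78.7 there. If each transcript yields a single tag, as in tag profiling, dividing by length favours short transcripts such as that of Sod1. By copies alone the order was Gsto1, Gstm7, Gstm1, Gpx4 and Txn1 in Dox+, and Txn1, Gpx4, Prdx1, Sod1 and Gsto1 in Dox-.

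Of 21 listed NRF2 target genes outside the 49 with enough copies, 5 were higher and 3 lower (23.8% and 14.3%, against 15.2% and 14.7% of all genes), with a median log2 ratio of 0.04. The largest were Slc7a11, the cystine carrier that feeds glutathione synthesis, with 77 and 229 copies, 3.05-fold higher, Ephx1, an epoxide hydrolase, with 116 and 226 copies, higher with an interval of 1.59 to 2.52, and Sqstm1, an autophagy adaptor that binds KEAP1, with 682 and 1301 copies, 1.95-fold higher. G6pdx and Ugdh were also higher, and Cbr3, Abcc4 and Blvra were lower. Of 7 genes that control NRF2, 1 was higher (14.3%, against 15.2% of all genes) and 0 lower. This was Fbxw11, a subunit of a ubiquitin ligase, with 160 and 239 copies, 1.53-fold higher. Hmox1 had 70 and 86 copies and was under the filter.

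Genes that use or turn over glutathione were mostly within 1.5-fold. Of 12 with enough copies, 1 was higher (8.33%) and 0 lower, against 15.2% and 14.7% of all genes, with a median log2 ratio of -0.04. Ggt5, which cleaves glutathione conjugates such as leukotriene C4 outside the cell, rose from 110 to 340 copies, 3.17-fold (2.55 to 3.96). Among thioredoxin and glutaredoxin relatives 1 of 19 was higher (5.26%) and 5 were lower (26.3%), against 15.2% and 14.7% of all genes. Their median was -0.25. Sesn1, a stress-induced sestrin, fell from 316 to 102 copies, 3.02-fold, and Glrx, glutaredoxin, from 316 to 141, 2.19-fold. Msrb2, a mitochondrial methionine sulfoxide reductase, rose from 431 to 988 copies, 2.35-fold. Txnip, which binds thioredoxin, fell from 1586 to 712 copies, 2.17-fold, and Nxn and Sesn3 were lower as well.

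**Figure D5:**
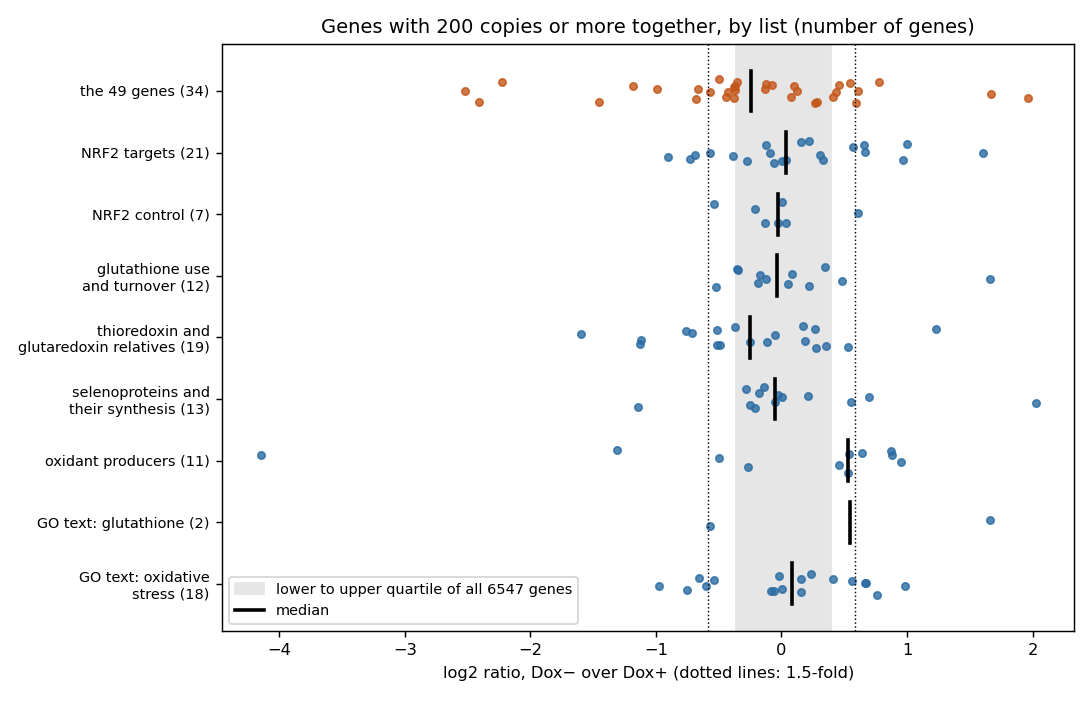
Log2 ratio, Dox- over Dox+, of each gene with at least 200 copies together in the 49 genes and in 8 lists of other genes, with the median as a bar and the range from the lower to the upper quartile of all genes in grey. The medians of the 49 genes (-0.24) and of the thioredoxin relatives (-0.25) lie below 0 and those of the oxidant producers (0.53) and of the 2 genes with glutathione in their text (0.55) lie above the grey band. The median of these 2 genes is only the midpoint of 1.66 for Ggt5 and -0.57 for Abcc1.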

How the data were processed

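Total RNA pooled from 3 uteri per condition at gestation day 2.5 was profiled by tag sequencing in 1 Dox+ and 1 Dox- library. The authors removed low quality, adaptor-only and single-copy tags and matched the rest to mouse reference mRNAs of build mm9. The deposited counts are unambiguous clean tags per gene, and the TPM was computed by the authors as copies per 1000000 clean tags, with 0.01 at a count of 0. The labels name CASAVA. The aligner and the enzyme are not given in the sources used here, and the labels mention fragmentation of mRNA where the methods describe tags, a difference that was not resolved. The authors' ratios, log2 ratios, P-values and FDR were not used.

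Library sizes, 5985925 and 5844314 clean tags, were derived from the counts and TPM of every gene. Fold changes are ratios of copies per clean tag. Counts of 3 or fewer were set to 3, and folds against them are bounds that leave out counting error. The 95% interval of a fold change was taken from the exact (Clopper-Pearson) limits on the Dox- share of the copies. Calls need 1.5-fold and 200 copies together. Every called member and the member with the most copies of each role were named in full, and of each list the 3 called genes with the largest fold change. Members and lists were chosen with earlier results of these data known. Alternatives were other scalings (edgeR 4.0.16 for TMM), filters, thresholds, 1 added copy, an Audic-Claverie test and leaving out members with shared sequence. Promoters are from RefSeq (GRCm38.p6 table) and positions from GENCODE and the NCBIM37 genome. The intervals were tested on simulated data. Python 3.11.15, scipy 1.17.1, pandas 2.3.3, Biopython 1.88 and R 4.3.3 were used.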

Additional observations from a re-analysis of the deposited data

How the results depend on the processing

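As reported, 5 members were higher and 8 lower in Dox-. With TMM factors and with median-ratio size factors 3 were higher, Cat and Gstt2 being lost, and 9 were lower. With the filter lowered to 20 copies, and with none, 8 were higher, with 11 and 12 lower, the genes added being those with fewer copies. At 2-fold, 2 were higher and 5 lower, against 4.61% and 5.62% of all genes. Over all genes the counts were 2385 higher and 2256 lower from 20 copies, 2869 and 2830 without a filter, and 302 and 368 at 2-fold. At 100 copies, at an absolute log2 ratio above 0.5, with 1 copy added, with the sum of the copies as library size and with an adjusted Audic-Claverie P as a further condition, the counts of members stayed between 5 and 7 higher and 8 and 9 lower. The adjusted P removed no call over all genes, with 994 higher and 961 lower, so it adds nothing to the call rule. Without the members that share over 10% of their 21-base windows, an alternative chosen after seeing the data, 4 were higher and 6 lower. No members reached 90% protein identity. The median log2 ratio of the members lay between -0.28 and -0.13, and the log2 ratio of each of the 34 genes stayed within its interval under the 4 alternatives run for it. The scalings moved the median of all genes by at most 0.04. No paired analysis was possible because each condition has 1 library and the labels carry no replicate numbers. Depth limits the 15 members under 200 copies, and a count of 0 allows a level of up to 0.501 TPM for Dox+ and 0.513 TPM for Dox-, counting error only.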

Other observations

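Of 11 oxidant producers with enough copies, 4 were higher (36.4%) and 2 lower (18.2%), against 15.2% and 14.7% of all genes. Their median log2 ratio was 0.53. Maob, an enzyme of the mitochondrial outer membrane that releases hydrogen peroxide while it oxidises amines, had 888 copies in Dox+ and 49 in Dox-, 17.7-fold lower (13.3 to 24.1). Its relative Maoa fell from 417 to 164 copies, 2.48-fold (2.07 to 2.99). Cyba, the small membrane subunit of the NADPH oxidase of phagocytes, rose from 112 to 212 copies, 1.94-fold (1.53 to 2.46), and Cybb, its partner in the membrane, and Rac2 and Ero1l were higher too. Leukocyte markers summed to 84.9 and 124 TPM in the same libraries and neutrophil markers to 7.02 and 37.0 TPM. Only 2 of 10 leukocyte markers, neither called, and 0 of 3 neutrophil markers had enough copies. The part of these cells in the rise of Cyba, Cybb and Rac2 was not tested.

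Of 13 genes for selenoproteins or their synthesis, 2 were higher (15.4%) and 1 lower (7.69%), against 15.2% and 14.7% of all genes. Their median log2 ratio was -0.05. Dio2, a deiodinase that activates thyroid hormone, rose from 457 to 1816 copies, 4.07-fold (3.67 to 4.52), and Selk from 389 to 616, 1.62-fold. Pstk, a kinase in the synthesis of selenocysteine, fell from 233 to 103 copies, 2.21-fold (1.74 to 2.81).

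Of 18 further genes whose annotation text holds the words oxidative stress, 4 were higher and 4 lower, with a median of 0.08. Each count is 22.2% of the list, against 15.2% and 14.7% of all genes. Lonp1, a mitochondrial protease, rose from 653 to 1260 copies, 1.98-fold, Adipoq fell from 157 to 78, 1.97-fold, and Etv5 rose from 126 to 208, 1.69-fold. Of 2 further genes whose text holds glutathione, Ggt5 was higher.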
